A study of Triticum aestivum with 18 samples.

Results

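Of the 107892 high-confidence wheat genes in the count and TPM tables, 3 of those annotated to trehalose metabolism are described here, TraesCS5B02G202200, TraesCS1A02G183000 and TraesCS1A02G210400. They were found by identifier, and each has a single transcript, so that its transcript and gene values are the same. Wheat is hexaploid, with the subgenomes A, B and D, and the first part of an identifier names the chromosome: 5B for the first gene and 1A for the others. The tables pair the identifiers with no gene names, coordinates or sequences.

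RNA was sequenced from microspore cultures of the spring wheats Nanda, which forms embryos readily, and Sadash, which responds poorly. Each genotype was sampled as isolated microspores on Day 0, as proembryos on Day 7 and as embryo-like structures (ELSs) on Day 21. There were 3 biological replicates in each of these 6 groups, 18 libraries in all, and the microspores of a replicate were pooled. Donor plants of both genotypes grew in growth chambers and their spikes were kept cold before culture, so every group, Day 0 included, had received that pre-treatment. In such bulk samples, fewer cells of a type and less RNA per cell cannot be told apart.

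Trehalose is a disaccharide of glucose that most plants hold in traces. Trehalose phosphate synthase joins glucose from UDP-glucose to glucose 6-phosphate, a phosphatase removes the phosphate to give trehalose, and trehalase splits trehalose into glucose. The intermediate, trehalose phosphate, is known chiefly as a signal of sucrose supply, and it restrains the kinase SnRK1, which holds back growth when sugar is short. In Arabidopsis, embryos that lack the synthase TPS1 stop before maturation. The annotation at hand does not say which of these steps the 3 genes carry out. TraesCS5B02G202200 and TraesCS1A02G210400 carry the gene ontology terms for trehalose metabolism and trehalose biosynthesis, and TraesCS1A02G183000 only the first.

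As listed, the terms hold 20 and 17 genes. The study had selected those genes on their levels, because they fell between Day 7 and Day 21 in Nanda. Any comparison that uses Nanda libraries of Day 7 or Day 21 is therefore given for the 3 genes as a description, with fold changes and standard errors (SE) but no test. The libraries of Sadash, and those of Nanda on Day 0, had no part in that choice of the list, and comparisons among them are given with their tests. Within the list, TraesCS5B02G202200 was itself taken for a high level, and the genes were chosen with earlier results of these data known. The tests of the 3 genes may therefore not be independent of their choice. Levels are CPM, counts scaled to a common library total with TMM factors, which compare one gene across libraries, and TPM, which also corrects for transcript length and serves to compare genes. Tests are edgeR's quasi-likelihood test over the 62692 genes that reached 1 CPM in any library, with Benjamini-Hochberg adjustment over all of them. A gene was called, and is said to have risen or fallen, where the adjusted p was under 0.01 and the log2 fold change was 1 or more in size. All 20 listed genes passed the filter.

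Libraries held 6675262 to 27463269 counts on high-confidence genes, both extremes being Sadash libraries of Day 21. Replicates correlated at 0.939 to 0.966 across genes in Sadash on Day 7 and at 0.974 to 0.996 in the other groups. Stage markers set Day 0 apart from the later stages. TraesCS7B02G278400, matched to the pollen factor GAMYB, had 17.7 to 51.3 CPM on Day 0 and at most 0.416 CPM on Day 21. A second microspore marker, TraesCS3A02G336500, had 17.2 to 19.1 CPM in Nanda on Day 0, 5.26 to 6.18 CPM on Day 7 and 3.71 to 5.10 CPM on Day 21. In Sadash it had 30.6 to 32.3 CPM on Day 0, 2.04 to 5.14 CPM on Day 7 and 1.17 to 1.43 CPM on Day 21. TraesCS3D02G389100, matched to the embryo factor BABY BOOM, had at most 0.0727 CPM on Day 0 and 37.0 to 75.3 CPM on Day 7. It stayed at 37.0 to 53.2 CPM in Nanda and 25.9 to 43.2 CPM in Sadash on Day 21, so in Nanda it did not separate Day 7 from Day 21. The seed-type markers, 2 of vicilin type and the seed peroxiredoxin TraesCS2D02G154300, had at most 0.204 CPM on Day 0 and 10.7 to 980.5 CPM on Day 21. On Day 7, replicate 3 of each genotype had more of the peroxiredoxin than its other replicates, with 49.4 CPM against at most 0.576 CPM in Nanda and 3.44 CPM against at most 0.171 CPM in Sadash. In the Nanda library TraesCS5B02G202200 lay between its other replicates, and the chromosome 1A genes had the lowest of their 3 values. Expected counts behind single values of the 3 genes ran from 65.2 to 3415.

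TraesCS5B02G202200 had its highest mean level on Day 7 in both genotypes, and that level was higher in Nanda. In Nanda, it had 40.1, 35.8 and 42.2 CPM on Day 0, 218, 258 and 246 CPM on Day 7 and 47.9, 25.6 and 31.2 CPM on Day 21. In Sadash, it had 29.2, 29.6 and 27.2 CPM on Day 0, 84.3, 48.3 and 142 CPM on Day 7 and 99.3, 47.3 and 31.2 CPM on Day 21. The Nanda libraries of Day 7 lay above all other libraries, whereas the Sadash libraries of Day 7 and of Day 21 overlapped and their replicates lay far apart.

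TraesCS1A02G183000 overlapped between the genotypes on Day 7 and Day 21 and was lowest on Day 21. Its Nanda libraries had 40.9, 42.2 and 46.3 CPM on Day 0, 53.8, 66.8 and 52.2 CPM on Day 7 and 9.32, 10.1 and 8.71 CPM on Day 21. Its Sadash libraries had 25.9, 38.8 and 29.5 CPM on Day 0, 55.1, 72.9 and 51.4 CPM on Day 7 and 13.4, 9.29 and 11.2 CPM on Day 21. In each genotype, every Day 7 library lay above every Day 0 library, and every Day 21 library lay below those of both earlier stages.

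TraesCS1A02G210400 had its highest level in Nanda microspores. Nanda libraries had 72.4, 78.3 and 74.9 CPM on Day 0, 29.9, 33.2 and 28.6 CPM on Day 7 and 11.3, 11.5 and 8.71 CPM on Day 21. Sadash libraries had 37.7, 31.8 and 36.2 CPM on Day 0, 26.5, 31.7 and 34.6 CPM on Day 7 and 5.33, 12.6 and 8.27 CPM on Day 21. The genotypes were apart on Day 0 and overlapped on Day 7 and on Day 21. Within Nanda the stages were fully separated, whereas in Sadash Day 7 overlapped Day 0 and only Day 21 lay below.

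**Figure D1:**
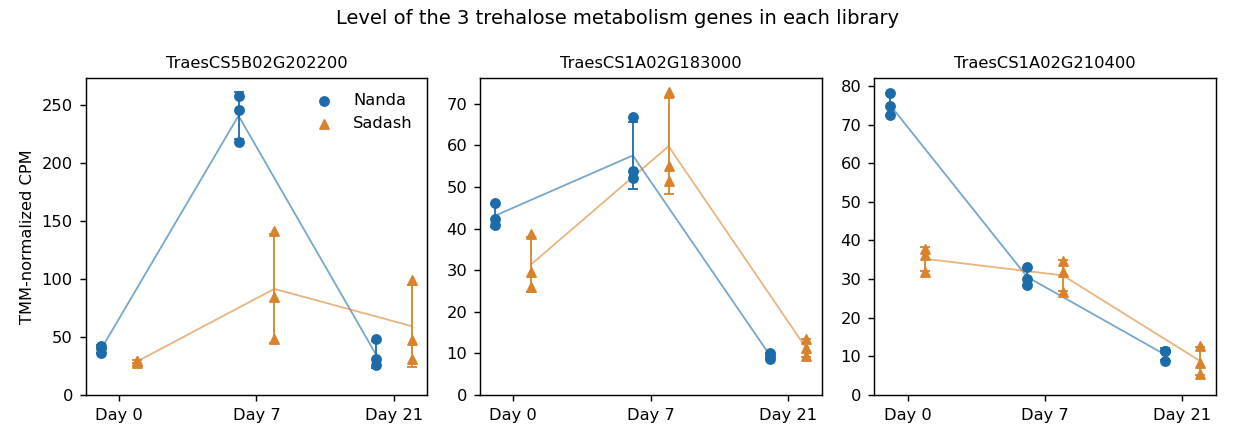
Level of the 3 trehalose metabolism genes in TMM-normalized CPM (linear axis, own scale per panel) by day of culture. Points are single libraries (Nanda, circles; Sadash, triangles), lines join group means and bars are the SD of 3 replicates. TraesCS5B02G202200 stands at 218 to 258 CPM in Nanda on Day 7, TraesCS1A02G183000 lies at 8.71 to 13.4 CPM in both genotypes on Day 21, and TraesCS1A02G210400 is highest in Nanda on Day 0.

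The first transition, from microspores to proembryos, was tested in Sadash, the recalcitrant genotype. TraesCS5B02G202200 rose, with a log2 change of 1.67 for Day 7 over Day 0 (SE 0.36, edgeR adjusted p = 8.49e-04). Because this gene was taken for a high level, the test may not be independent of its choice. TraesCS1A02G183000 changed by 0.93 on the log2 scale (SE 0.17, edgeR adjusted p = 1.89e-04), which lies under the required size, so it was not called. TraesCS1A02G210400 had a log2 change of -0.19, with a 95% interval of -0.60 to 0.23 (edgeR adjusted p = 0.456). Thus 1 of the 3 genes was called higher, where 16% of all tested genes were. For 2 of the 3, every Day 7 library lay above every Day 0 library, which held for 23.8% of tested genes. The size of the change of TraesCS1A02G183000 was near the threshold, and it was called without Sadash Day 0 replicate 2 (log2 fold change 1.11) or without Sadash Day 7 replicate 3 (1.03).

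From proembryos to ELSs in Sadash, the chromosome 1A genes fell. TraesCS1A02G183000 averaged 11.3 ± 2.06 CPM on Day 21 and 59.8 ± 11.5 CPM on Day 7 (SD, n = 3 each), a log2 change of -2.38 (SE 0.18, edgeR adjusted p = 5.11e-09). TraesCS1A02G210400 averaged 8.73 ± 3.65 CPM on Day 21 and 30.9 ± 4.07 CPM on Day 7, a log2 change of -1.89 (SE 0.21, edgeR adjusted p = 7.49e-07). For both, every Day 21 library lay below every Day 7 library, as did 26.2% of tested genes. Hence 2 of the 3 genes were called lower, where 18.4% of all tested genes were. Since the list was drawn from genes that fell in this step in Nanda, that count is not independent evidence of their direction. TraesCS5B02G202200 did not pass the test, with a log2 change of -0.62 (95% interval -1.35 to 0.12, edgeR adjusted p = 0.14). Its value depended on single libraries: without Sadash Day 21 replicate 1, the log2 fold change was -1.23 and it was called (edgeR adjusted p = 0.00459), and without Sadash Day 7 replicate 3 it was -0.15.

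Across the whole culture of Sadash, the same genes were set apart, in a comparison that shares its libraries with the others of Sadash. TraesCS1A02G183000 and TraesCS1A02G210400 fell, with log2 changes of -1.45 (SE 0.18, edgeR adjusted p = 1.1e-06) and -2.08 (SE 0.21, edgeR adjusted p = 1.23e-07) for Day 21 over Day 0. This made 2 of the 3 called lower, where 22.2% of all tested genes were, and their Day 21 libraries all lay below their Day 0 libraries, which held for 37.3% of tested genes. Given how the list was drawn, this count, too, is not independent evidence of direction. TraesCS5B02G202200 had 31.2 to 99.3 CPM on Day 21, against 27.2 to 29.6 CPM on Day 0, without overlap, as 35% of tested genes had in that direction. Its log2 fold change was 1.06 (SE 0.36), and the edgeR adjusted p of 0.0143 missed the threshold. It was 0.44 without Sadash Day 21 replicate 1, the library with the highest level, and 1.37 without replicate 3 of that group, where it was called (edgeR adjusted p = 0.00202). It was also called without Sadash Day 7 replicate 2 or 3, with values of 1.06 in both cases.

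Microspores of the genotypes were compared on Day 0, before embryogenesis. TraesCS1A02G210400 was higher in Nanda, where it averaged 75.2 ± 2.96 CPM, against 35.2 ± 3.08 CPM in Sadash (SD, n = 3 each), a log2 change of 1.09 (SE 0.20, edgeR adjusted p = 4.24e-04). It was the 1 gene of the 3 called higher in Nanda, where 5.44% of all tested genes were. TraesCS5B02G202200 had a log2 change of 0.46 (95% interval -0.29 to 1.20, edgeR adjusted p = 0.385) and TraesCS1A02G183000 likewise 0.46 (95% interval 0.10 to 0.82, edgeR adjusted p = 0.0529). The fit estimates spread over all groups together. For TraesCS5B02G202200 the SD was 3.27 CPM in Nanda and 1.25 CPM in Sadash on Day 0, but 47.1 CPM in Sadash on Day 7. Over the alternative settings its adjusted p (edgeR, DESeq2 or limma-trend) ran from 0.00339 to 0.487, and its log2 change from 0.41 to 0.55. For all 3, the Nanda libraries lay above those of Sadash without overlap, as did 26.1% of tested genes.

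The comparisons that hold Nanda libraries of Day 7 or Day 21 are given without a test. In Nanda, TraesCS5B02G202200 had a log2 change of 2.61 (SE 0.37) for Day 7 over Day 0 and of -2.79 (0.37) for Day 21 over Day 7, so that its net difference for Day 21 over Day 0 was -0.17 (0.35). TraesCS1A02G183000 had 0.42 (0.17) in the first step, -2.62 (0.18) in the second and -2.20 (0.18) overall. TraesCS1A02G210400 had negative values in both steps, -1.30 (0.20) and -1.54 (0.21), and -2.84 (0.21) overall. Of all tested genes, 33.3% had every Nanda library of Day 7 above those of Day 0, as TraesCS5B02G202200 and TraesCS1A02G183000 had, and 33.3% had them below, as TraesCS1A02G210400 had. In 40.6%, every library of Day 21 lay below those of Day 0, as in both chromosome 1A genes. On Day 21 the levels of TraesCS5B02G202200 thus overlapped those in microspores, and those of the chromosome 1A genes lay below. All 3 lay lower on Day 21 than on Day 7 without overlap, as the choice of the list set, and 34.9% of tested genes did so.

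For Nanda over Sadash on Day 7, TraesCS5B02G202200 had a log2 change of 1.40 (0.35), and its libraries did not overlap, as was the case in that direction for 20.8% of tested genes. The others differed by -0.05 (0.17) for TraesCS1A02G183000 and -0.02 (0.20) for TraesCS1A02G210400. On Day 21, the differences for Nanda over Sadash were -0.77 (0.35), -0.29 (0.18) and 0.33 (0.22) in the same order of genes, and the libraries of the genotypes overlapped for all of them.

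In TPM, the leading gene changed with the stage. In Nanda, TraesCS1A02G210400 was the highest on Day 0, at 56.0 ± 0.871 TPM (SD, n = 3), against 20.7 ± 1.32 TPM for TraesCS1A02G183000 and 18.3 ± 1.81 TPM for TraesCS5B02G202200. On Day 7 the last of these led, at 102 ± 10.7 TPM, while the others had 25.1 ± 3.35 and 20.7 ± 1.49 TPM. On Day 21 it still led, at 18.8 ± 6.05 TPM, against 9.16 ± 1.21 TPM for TraesCS1A02G210400 and 5.26 ± 0.368 TPM for TraesCS1A02G183000. By mean TPM, Sadash followed the same order of leaders, with 26.6 ± 1.70 TPM for TraesCS1A02G210400 on Day 0. TraesCS5B02G202200 had 44.8 ± 23.3 and 26.5 ± 15.1 TPM on Day 7 and Day 21. On Day 7 in Sadash, however, its range overlapped those of the other genes. TraesCS1A02G183000 had 30.6 ± 7.42 TPM there and TraesCS1A02G210400 had 24.6 ± 4.32 TPM.

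Ordered by mean TPM, the groups of TraesCS5B02G202200 ran from Nanda on Day 7 through Sadash on Day 7, Sadash on Day 21, Nanda on Day 21 and Nanda on Day 0 to Sadash on Day 0. Neighbours in that order were separated only at the ends, between the first and second and between the last 2. TraesCS1A02G183000 ran from Sadash on Day 7, at 30.6 ± 7.42 TPM, through Nanda on Day 7, Nanda on Day 0, Sadash on Day 0 and Sadash on Day 21 to Nanda on Day 21. The Day 7 groups overlapped, as did those of Day 21, at 5.26 ± 0.368 TPM in Nanda and 5.27 ± 0.795 TPM in Sadash. For TraesCS1A02G210400, Nanda on Day 0 stood alone, Sadash on Day 0, Sadash on Day 7 and Nanda on Day 7 overlapped from neighbour to neighbour, and Nanda and Sadash on Day 21 overlapped at the low end.

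The 3 genes did not share one pattern. Over the 18 libraries, Pearson's r on log2 values was 0.78 between the chromosome 1A genes, 0.493 between TraesCS5B02G202200 and TraesCS1A02G183000, and 0.048 between TraesCS5B02G202200 and TraesCS1A02G210400. These coefficients describe libraries that fall into 6 groups and carry no test.

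TraesCS5B02G202200 belongs to a triad, one copy per subgenome, with TraesCS5A02G203500 and TraesCS5D02G210000, both of which are also on the list. RSEM divides reads that fit several copies among them, and the split between near-identical copies is therefore uncertain. The copies followed a like course. In Nanda, TraesCS5A02G203500 had 46.2 ± 0.890, 231 ± 24.7 and 33.0 ± 12.2 CPM on Day 0, Day 7 and Day 21, and TraesCS5D02G210000 had 72.7 ± 2.77, 258 ± 27.0 and 40.6 ± 18.8 CPM. In Sadash, TraesCS5A02G203500 rose by 1.72 on the log2 scale for Day 7 over Day 0 (SE 0.40, edgeR adjusted p = 0.00156), and TraesCS5D02G210000 had 1.23 (SE 0.48, edgeR adjusted p = 0.0413), which did not pass. On Day 0, the log2 changes for Nanda over Sadash were 0.06 (SE 0.39) and 0.25 (SE 0.48) in these copies, and neither was called.

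The wide spread of TraesCS5B02G202200 in Sadash was shared by its copies and followed the libraries. On Day 7, replicate 2 was lowest and replicate 3 highest in all 3 copies, with 73.1 and 226 CPM for TraesCS5A02G203500 and 41.2 and 250.5 CPM for TraesCS5D02G210000. On Day 21, replicate 1 was highest and replicate 3 lowest in all 3, with 145 and 34.6 CPM for TraesCS5A02G203500 and 184 and 43.6 CPM for TraesCS5D02G210000. TraesCS1A02G183000 went the other way on Day 7, with its highest Sadash value, 72.9 CPM, in replicate 2. The marker matched to BABY BOOM was also highest in that library, at 75.3 CPM against 50.5 and 62.3 CPM. The seed peroxiredoxin TraesCS2D02G154300 was highest in replicate 3, as the triad copies were, at 3.44 CPM against 0.171 CPM in replicate 1 and 0.0754 CPM in replicate 2. The GAMYB-type marker TraesCS7B02G278400 had 8.39 to 8.92 CPM in all 3. The second microspore marker, TraesCS3A02G336500, differed more between them, with 5.14, 2.04 and 2.60 CPM in replicates 1, 2 and 3. The part of culture state in these differences was not tested.

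Within the triad, the B copy took a larger share in Nanda than in Sadash. Its share of the summed TPM was 32.8% ± 1.54, 41.8% ± 0.62 and 41.4% ± 2.05 in Nanda on Day 0, Day 7 and Day 21, and 28.6% ± 1.23, 32.8% ± 4.08 and 32.7% ± 3.59 in Sadash (SD, n = 3 each). The genotypes did not overlap at any stage: on Day 0 the lowest Nanda library had 31.1% and the highest Sadash library 29.7%, on Day 7 these were 41.3% and 37.5%, and on Day 21 they were 39.2% and 36.9%. The A copy had 29.7% of the Day 7 sum in Nanda and 38.4% in Sadash. The D copy led in microspores of both genotypes, with 38.7% in Nanda and 38.8% in Sadash, and its shares on Day 7 were 28.5% in Nanda and 28.8% in Sadash. In shares of summed CPM, which are not corrected for transcript length, the B copy had 33.0% on Day 7 in Nanda and the D copy 35.3%, so the order of these copies depended on the unit, whereas the B copy was again higher in Nanda than in Sadash without overlap at every stage. These shares rest in part on the Nanda libraries that chose the list and on how shared reads were divided, and they were not tested.

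**Figure D2:**
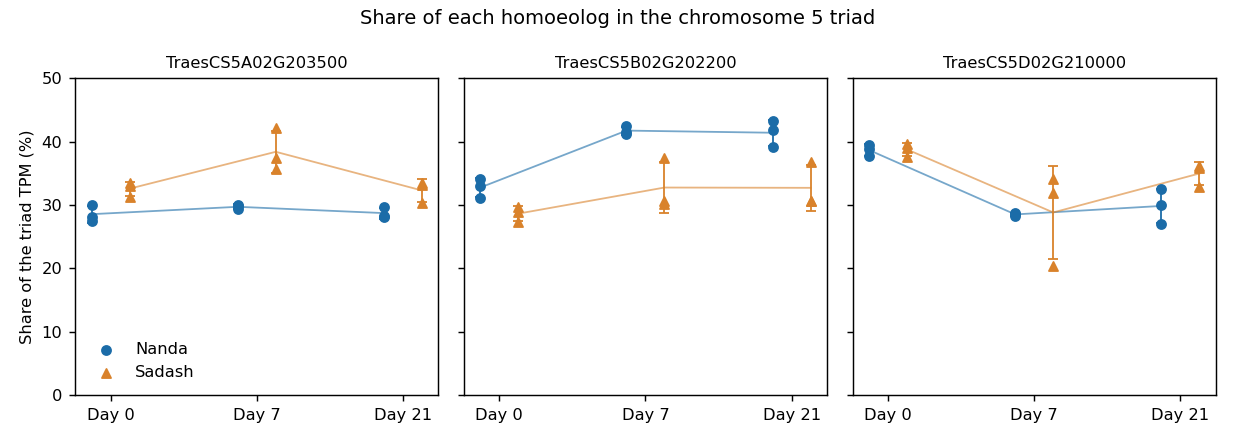
Share of each copy in the summed TPM of the chromosome 5 triad (percent, axis from 0) by day of culture, with 1 panel each for the A, B and D copies. Points are single libraries (Nanda, circles; Sadash, triangles), lines join group means and bars are the SD of 3 replicates. The share of TraesCS5B02G202200 in Nanda lies above that in Sadash at every stage, with 41.8% and 32.8% on Day 7.

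TraesCS1A02G183000 was listed with TraesCS1B02G197900 and TraesCS1D02G186500 as the genes that carry the term for trehalose metabolism without that for biosynthesis. The source pairs them in no triad. In Sadash, TraesCS1D02G186500 rose for Day 7 over Day 0, with a log2 change of 1.64 (SE 0.21, edgeR adjusted p = 3.51e-06), whereas TraesCS1B02G197900 had 0.46 (SE 0.19, edgeR adjusted p = 0.0467). Both fell for Day 21 over Day 7, with log2 changes of -3.74 and -3.50 (edgeR adjusted p = 4.12e-10 and 3.96e-10), and the value of TraesCS1A02G183000 in that step was -2.38. The difference between the genes was not tested. On Day 21, TraesCS1A02G183000 had the highest level of the set, at 5.27 ± 0.795 TPM in Sadash, while TraesCS1D02G186500 had 1.57 ± 0.166 TPM and TraesCS1B02G197900 1.54 ± 0.490 TPM.

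TraesCS1A02G210400 was listed with TraesCS1D02G213700, the most abundant gene of the list by mean CPM outside the chromosome 5 triad, and TraesCS1B02G224300, which is named here after its values were seen. TraesCS1D02G213700 had 161, 182 and 188 CPM in Nanda on Day 0, against 72.6, 62.5 and 73.5 CPM in Sadash, and was higher in Nanda with a log2 change of 1.35 (SE 0.26, edgeR adjusted p = 8.25e-04). TraesCS1B02G224300 had 0.88 (SE 0.13, edgeR adjusted p = 5.52e-05), which lies under the required size. Both fell in Sadash for Day 21 over Day 7, with log2 changes of -2.82 and -4.16 (edgeR adjusted p = 2.07e-07 and 1.86e-12).

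**Figure D3:**
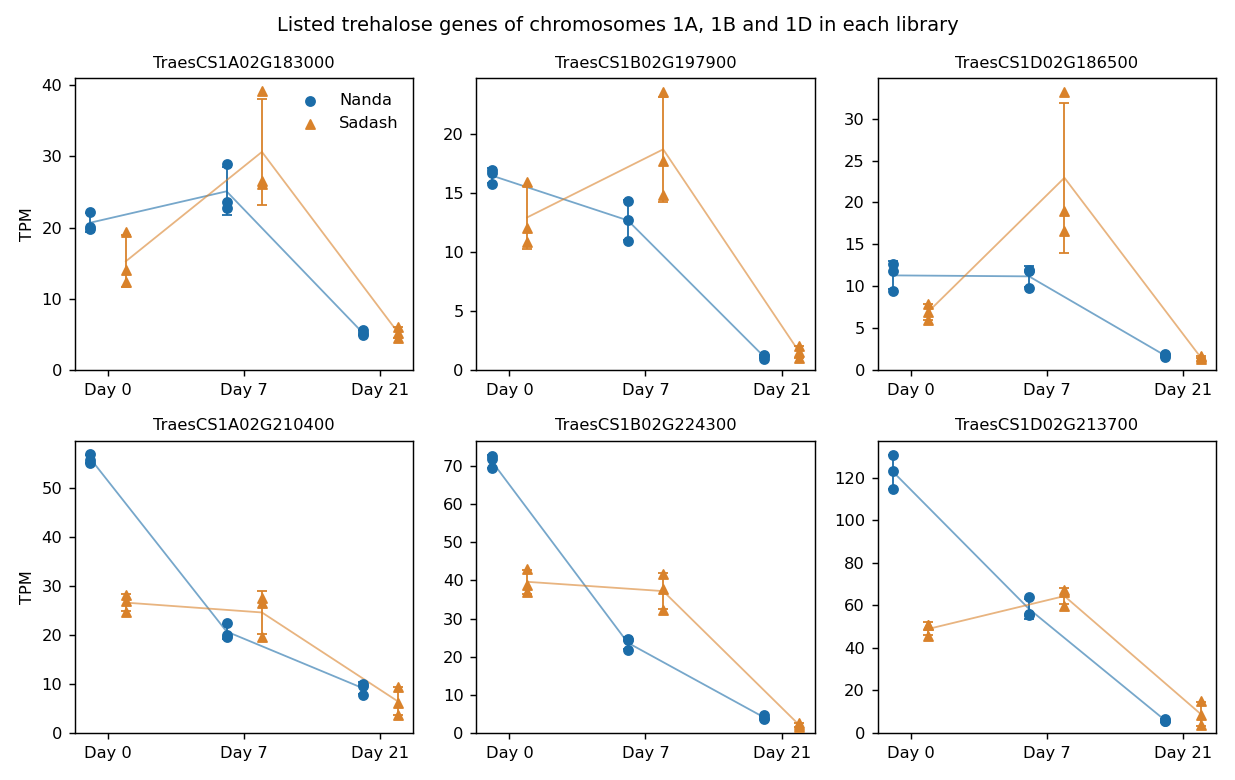
TPM of the listed trehalose genes of chromosomes 1A, 1B and 1D (linear axes, own scale per panel) by day of culture. Points are single libraries (Nanda, circles; Sadash, triangles), lines join group means and bars are the SD of 3 replicates. By their means, the upper genes are highest in Sadash on Day 7, where TraesCS1A02G183000 has a mean of 30.6 TPM, and the lower genes are highest in Nanda on Day 0, where TraesCS1A02G210400 has 56.0 TPM.

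Among the other 17 genes of the list, 2 rose in Sadash for Day 7 over Day 0, TraesCS5A02G203500 and TraesCS1D02G186500, where 16% of all tested genes did, and the rest were not called. Their median log2 fold change was 0.33, against 0 over all tested genes. Leaving out 1 Sadash library gave a count of 1 (Day 7 replicate 3), 5 (Day 7 replicate 2) or 4 (Day 0 replicate 2). For Day 21 over Day 7 in Sadash, 9 of the 17 fell, where 18.4% of all tested genes did, and the median was -2.82, against 0 over all tested genes. For Day 21 over Day 0, 8 of the 17 fell, where 22.2% of all tested genes did, and the median was -2.10, against -0.01. On Day 0, 1 of the 17 was called higher in Nanda, TraesCS1D02G213700, where 5.44% of all tested genes were, and the median was 0.06, against 0. That count was 2 without Sadash Day 0 replicate 1 or 2. Since the list was drawn from genes that fell late in Nanda, these counts are not independent evidence of its direction.

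Genes of chromosome group 2 on the list, named here after their values were seen, were at or near 0 on Day 21. TraesCS2A02G412100 averaged 18.7 ± 1.34 CPM in Sadash on Day 0 and 11.0 ± 3.19 CPM on Day 7 and had no counts in any Day 21 library, at least 45.5-fold lower than on Day 7 at a floor of 3 counts per library. TraesCS2B02G430700 and TraesCS2D02G409300 had 20.5 ± 4.70 and 18.5 ± 3.32 CPM on Day 7, and at most 0.143 CPM in any Sadash library of Day 21. In Nanda on Day 21, no library had more than 0.0593 CPM of TraesCS2D02G409300, and TraesCS2A02G412100 and TraesCS2B02G430700 had no counts. TraesCS1D02G340400, another abundant gene of the list, had a log2 change of -1.18 and fell in Sadash for Day 21 over Day 7 (SE 0.24, edgeR adjusted p = 4.59e-04).

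Not every listed gene had a negative value in that step in Sadash. TraesCS6A02G351300 had 106, 73.1 and 27.1 CPM in Sadash on Day 21, against 49.0, 31.5 and 58.4 CPM on Day 7, a log2 change of 0.57 (SE 0.35, edgeR adjusted p = 0.169), the only positive value of the 20 in that comparison. Its triad partners TraesCS6B02G384500 and TraesCS6D02G334000, which are not on the list, had 0.97 and 0.76 (edgeR adjusted p = 0.0425 and 0.082). Both partners rose for Day 21 over Day 0 in Sadash, by 1.66 and 1.52 on the log2 scale (edgeR adjusted p = 0.00139 and 0.00145). TraesCS6A02G351300 itself was not called higher in that comparison, and its 38.6 to 40.8 CPM on Day 0 lay within its Day 21 range. As in the chromosome 5 triad, replicate 1 was the highest and replicate 3 the lowest Sadash library of Day 21 for TraesCS6A02G351300.

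**Figure D4:**
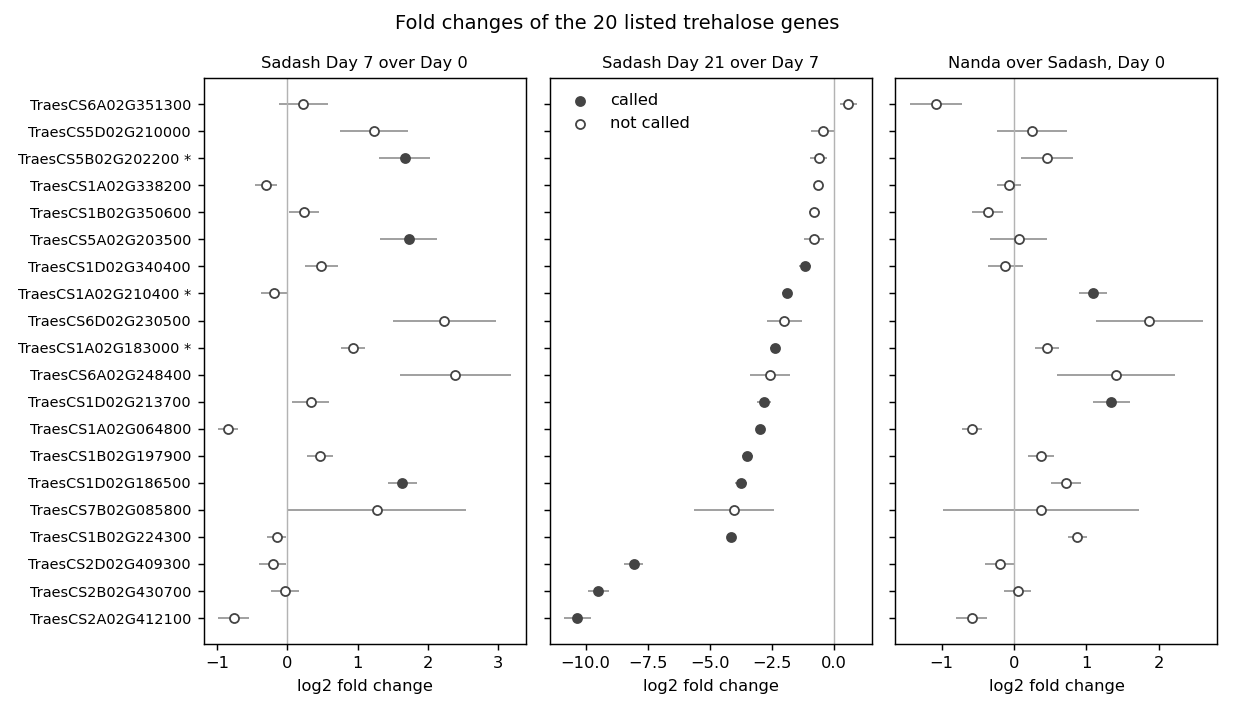
Log2 fold changes (standard errors as bars) of the 20 listed trehalose genes for Sadash Day 7 over Day 0, Sadash Day 21 over Day 7 and Nanda over Sadash on Day 0, with a different range on each axis. Filled circles were called (adjusted p under 0.01 and a log2 change of 1 or more in size), open circles were not, and stars mark the 3 genes described. For Day 21 over Day 7, 11 of the 20 fell, and the values of the chromosome group 2 genes in that panel are fitted values that rest on few or no Day 21 counts.

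Another gene named by its annotation, TraesCS4B02G239900, matched to the Arabidopsis trehalose phosphate synthase TPS6, rose where listed genes fell. It had 0.154 ± 0.150, 21.1 ± 2.76 and 51.9 ± 3.78 CPM in Nanda on Day 0, Day 7 and Day 21, and 0.0952 ± 0.165, 7.14 ± 1.82 and 35.8 ± 4.19 CPM in Sadash. In Sadash it rose by 2.33 on the log2 scale for Day 21 over Day 7 (SE 0.27, edgeR adjusted p = 8.5e-07). On Day 21 it reached 19.1 ± 1.13 TPM in Nanda and 11.0 ± 0.973 TPM in Sadash, and TraesCS5B02G202200 had 18.8 ± 6.05 TPM in Nanda and 26.5 ± 15.1 TPM in Sadash.

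Sucrose is the sugar whose supply trehalose phosphate reports, and invertases are enzymes that split it. All 5 listed invertases rose in Sadash for Day 7 over Day 0, where 16% of all tested genes did and TraesCS5B02G202200 also rose. They had been listed because they rose in Nanda in that step, so this count is not independent evidence of their direction. No Day 0 library had more than 0.714 CPM of any of them, so they passed the filter of 1 CPM through later stages. The cell wall invertase TraesCS3B02G028500 had 4.75 ± 2.72 CPM in Sadash on Day 7 and 0.0238 ± 0.0412 CPM on Day 0, and TraesCSU02G173900, of the same annotation, had 9.91 ± 7.72 CPM on Day 7 and 0.534 ± 0.186 CPM on Day 0 (edgeR adjusted p = 6.37e-06 and 9.35e-06). Of the alkaline invertases, TraesCS2A02G304200 had 3.54 ± 1.98 CPM on Day 7 in Sadash, TraesCS2B02G320900 2.18 ± 1.78 CPM and TraesCS2D02G302800 1.21 ± 0.227 CPM. Of these, TraesCS2B02G320900 and TraesCS2D02G302800 had no counts on Day 0 and were at least 9.69-fold and 5.40-fold higher on Day 7, at a floor of 3 counts per library. For Day 21 over Day 7, 3 of the 5 fell, where 18.4% of all tested genes did, and the log2 changes of TraesCS3B02G028500 and TraesCS2D02G302800 were 0.55 and 0.42 (edgeR adjusted p = 0.256 and 0.438).

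Of 18 genes annotated to sucrose metabolism, 8 fell in Sadash from Day 0 to Day 7, where 12% of all tested genes did. The median log2 change of the 18 was -0.79, against 0 over all tested genes. They had been listed for falling in that step in Nanda, so this count, too, is not independent evidence of their direction. The most abundant, TraesCS3A02G425500 and TraesCS3D02G420300, were lower in Nanda on Day 0, at 47.9 to 65.8 and 39.4 to 56.0 CPM against 167 to 231 and 160.1 to 204 CPM in Sadash, with log2 changes of -1.83 and -2.00 (edgeR adjusted p = 7.25e-06 and 8.06e-08). TraesCS4A02G140000 was higher in Nanda on Day 0, by 1.66 on the log2 scale (edgeR adjusted p = 8.59e-04), and rose by 4.27 in Sadash for Day 21 over Day 7 (edgeR adjusted p = 1.38e-08). Its course was thus unlike that of the chromosome 1A trehalose genes, which fell in that step.

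Genes with the pattern most like each of the 3 were sought among the 22693 genes with an average of 10 CPM or more, by Pearson's r over the 18 libraries on log2(CPM + 1). For TraesCS5B02G202200 they were TraesCS7B02G150700 (r = 0.985), TraesCS2A02G100900 (0.975), listed for cell redox homeostasis, and TraesCS5B02G407200 (0.972). The first had 60.6 ± 6.96 CPM in Nanda on Day 7 and 20.3 ± 11.6 CPM in Sadash, and thus the same wide spread in Sadash. Its own triad copies ranked 12 (TraesCS5A02G203500, r = 0.960) and 49 (TraesCS5D02G210000, r = 0.925).

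For TraesCS1A02G183000 the nearest genes were TraesCS1A02G111000 (r = 0.988), TraesCS3A02G192100 (0.983) and TraesCS3D02G217400 (0.983), with TraesCS1D02G186500 at rank 6 (0.979) and TraesCS1B02G197900 at rank 42 (0.957). For TraesCS1A02G210400 they were TraesCS2A02G585600 (0.978), TraesCS3A02G245900 (0.976) and TraesCS2D02G279600 (0.976), with TraesCS1B02G224300 at rank 11 (0.967) and TraesCS1D02G213700 at rank 29 (0.954). TraesCS2A02G585600 had 175 ± 24.9 CPM in Nanda on Day 0 and 26.0 ± 2.27 CPM in Sadash. These coefficients, too, are a description over libraries that fall into 6 groups.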

How the data were processed

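Total RNA of pooled microspores, proembryos and ELSs was sequenced in paired ends, in 3 biological replicates for each of 6 groups. After trimming by Trimmomatic 0.39 and alignment to the IWGSC v1.1 assembly by STAR 2.7.5a, the authors ran RSEM 1.3.3 and deposited its expected counts for 298774 transcripts. TPM of these transcripts were deposited in a second table. Both were summed per gene, the counts were rounded, and the 161536 low-confidence genes, with 5.14% to 6.88% of the counts, were left out. edgeR 4.0.16 (R 4.3.3) was fitted to all 18 libraries with TMM scaling and one level per group. Standard errors came from the F statistic, and 95% intervals from the t distribution. P-values set a difference against the spread between replicates within groups, which was estimated over all 6 groups together. Figures and tables used Python 3.11.15, numpy 2.4.6, pandas 2.3.3 and matplotlib 3.10.9.

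The genes and lists were chosen with earlier results of these data known. Beyond the 3 genes, the text names the triad copies of the first, the genes annotated to metabolism but not biosynthesis, the 3 other listed genes with the highest mean CPM, the 2 triad partners off the list, the TPS6-type gene, the invertases, the 3 sucrose genes with the highest mean CPM, and the 3 genes nearest in pattern to each. Alternatives were RLE size factors, DESeq2 1.42.0, testing all genes without a filter, a stricter filter (1 CPM in 3 or more libraries), a replicate block, a fit to the 6 libraries of a comparison alone, leaving out single libraries, and limma-trend (limma 3.58.1) on TPM, as log2 with a pseudocount of 1 or of 0.1. Triad shares were also taken from CPM.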

Additional observations from a re-analysis of the deposited data

Results flagged for a closer look

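TraesCS1D02G213700, a listed gene with a pattern close to that of TraesCS1A02G210400, differed between the genotypes in its course from Day 0 to Day 7. In Nanda it had 90.7, 101 and 85.2 CPM on Day 7, against 161, 182 and 188 CPM on Day 0. In Sadash it had 87.1, 86.3 and 88.7 CPM on Day 7, against 72.6, 62.5 and 73.5 CPM on Day 0. All Nanda libraries were thus lower and all Sadash libraries higher on Day 7. Of all tested genes, 33.3% had such a separation downward in Nanda, and 23.8% had it upward in Sadash. The share with both together was not computed. This gene was the only hit when the genes of all lists used here were searched, in each pair of stages, for such opposite separation. The change in Sadash was not called, with a log2 change of 0.33 (SE 0.26, edgeR adjusted p = 0.307). The difference between the log2 fold changes (Nanda minus Sadash) was -1.27. This difference was not tested, and it uses Nanda libraries of Day 7, which took part in the choice of the list.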

How the results depend on the processing

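Each of the 12 tested values of the 3 genes was recomputed under 26 alternatives, 18 of which left out 1 library, and none changed direction. Since a comparison holds only 6 libraries, most of these 18 left out a library outside it. Such fits can change little but the shared estimate of spread, so they say little about direction. The call was kept in all 26 except for TraesCS1A02G183000 in Sadash Day 7 over Day 0 (23 of 26) and, for TraesCS5B02G202200, Sadash Day 21 over Day 7 (25) and Day 21 over Day 0 (21). TraesCS1A02G183000 in Sadash Day 7 over Day 0 was called, at 1.05, when genes had to reach 1 CPM in 3 or more libraries, and ran from 0.76 to 1.11 with a library left out. TraesCS5B02G202200 in Sadash Day 21 over Day 0 was called at 1.07 without a filter and at 1.12 with that stricter one, and ran from 0.44 to 1.37 with a library left out. In Sadash Day 21 over Day 7 it ran from -1.23 to -0.15. Of the other 17 listed genes, DESeq2 called 4 higher in Sadash Day 7 over Day 0 in place of 2, and with a library left out 1 to 5 were called higher and 0 to 1 lower. In Sadash Day 21 over Day 7, 8 to 12 were called lower with a library left out. In Sadash Day 21 over Day 0, 0 to 2 were called higher and 8 to 9 lower. On Day 0, 1 to 2 were called higher and 0 to 1 lower in Nanda, and 1 was called lower with only the 6 libraries compared. The cause of these changes was not tested.

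With only the 6 libraries compared, 11281 in place of 17537 genes were called in Sadash Day 7 over Day 0, and 14374 in place of 22090 in Day 21 over Day 7. The groups share replicate numbers, but same-numbered libraries did not deviate together in the tested comparisons (correlations of -0.255 to 0.136), so the numbers were not taken as pairs there. Between the genotypes on Day 21, which was not tested, same-numbered libraries did deviate together (0.157 to 0.391, each best with its own number). A replicate block fitted to these 6 libraries, added after seeing the data, gave log2 changes of -0.67 (SE 0.19) for TraesCS5B02G202200, -0.29 (0.16) for TraesCS1A02G183000 and 0.34 (0.25) for TraesCS1A02G210400, against -0.77, -0.29 and 0.31 in the same libraries without it. With the number as a replicate block, no call of the 3 genes changed and the counts of the lists stayed similar. Over all genes, 16620, 21040, 28153 and 6057 were then called in Sadash Day 7 over Day 0, Day 21 over Day 7, Day 21 over Day 0 and on Day 0 between genotypes, against 17537, 22090, 28946 and 6619 without the block. With CPM in place of TPM, the shares of the chromosome 5 triad moved by more than the replicate SD in 13 of 18 values, and that of the B copy in Nanda on Day 7 was 33.0% in place of 41.8%. Reads divided among similar copies limit every value of a single gene.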
